A study of Mus musculus with 9 samples.

Results

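The cytosolic ribosomal protein genes, which encode the protein part of the ribosome outside mitochondria, were followed in mouse pancreatic tumor cells with and without knockout of Usp22. Members were the table rows whose symbol is Rpl or Rps followed by a number, with at most a letter a, x, l or y and a digit after it, together with Rplp0, Rplp1, Rplp2 and Rpsa. Kinases of the Rps6k family and symbols ending in a pseudogene suffix were left out. This gave 85 genes of 24493 in the table, 33 of the small (40S) and 52 of the large (60S) subunit. The cells were clone 6419c5, described as late-stage tumor cells of strain C57BL/6, taken from tumors implanted under the skin. Polyadenylated RNA was measured in 3 WT, 3 Usp22-KOA and 3 Usp22-KOB samples, all of the same clone, with genotype as the labelled difference. The sources used here do not give what A and B stand for, how the tumor cells were separated from host cells, or whether samples of a group came from separate mice. The p-values therefore rest on the spread among these samples, which may be technical.

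Each ribosome carries a single copy of most of these proteins, and cells make them in matched amounts together with ribosomal RNA. Their mRNAs are short and very abundant, begin with a tract of C and T bases at the 5′ end that places their translation under mTORC1 control, and are transcribed from CG-rich promoters. Several proteins have a paralog encoded by another gene, and the family has left many reverse-transcribed copies in the mouse genome. Usp22 encodes an enzyme that takes ubiquitin off histones at transcribed genes, as a subunit of the coactivator SAGA.

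Levels are in TPM, a unit relative to transcript length in which every library sums to 1000000, so that levels of different genes can be compared but read depth is unknown. Differences are on the log2(TPM + 1) scale, as estimate ± SE from 1 limma fit over the 13843 genes whose mean reached 1 TPM. Calls were made where the Benjamini-Hochberg adjusted p, over all those genes, was under 0.05, and the pseudocount of 1 understates changes of low genes. Of the 85 members, 82 passed this filter. Usp22 was at 55.3 ± 0.98 TPM in WT, at 9.44 ± 0.87 TPM in the Usp22-KOA and at 13.6 ± 1.62 TPM in the Usp22-KOB samples (SD, n = 3 each), with every knockout sample under every WT sample. In bulk RNA, fewer cells of a type and less RNA per cell cannot be told apart.

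Ribosomal protein mRNAs were among the most abundant in these cells. 60 members had a mean over 1000 TPM, 50 were among the 100 highest rows of the table, and the median of the members' means was 1749 TPM. Rpl41, which encodes the smallest ribosomal protein, stood highest, between 7294 and 8513 TPM over the 9 samples. Rplp1, a protein of the stalk that recruits elongation factors, ranged from 6493 to 8373 TPM, and Rps21 from 4961 to 8253 TPM. Rps26, which lines the mRNA exit channel, ranged from 4542 to 5963 TPM, and Rpl38 from 4223 to 7102 TPM. Each of these ranges overlapped that of the next gene in this order. At the other end were some of the paralogs and retrocopies, whereas the paralogs Rps27l and Rpl22l1 had means of 342 and 301 TPM. Rps4l had a mean of 12.2 TPM and Rpl39l of 2.27 TPM, while Rpl32l, Rpl3l and Rpl10l had means of 0.35, 0.19 and 0.085 TPM and were not tested. Rpl3l and Rpl10l are paralogs known from striated muscle and testis. The GENCODE annotation lists Rps4l and Rpl32l as processed pseudogenes, Rps4l as a transcribed one.

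Summed over all 85 members, ribosomal protein mRNA took a smaller share of the library in Usp22-KOA than in WT, with Usp22-KOB in between. The sum ranged from 18.1% to 19.4% of the library over the 3 WT samples and from 15.8% to 16.3% over the 3 of Usp22-KOA. The Usp22-KOB samples were at 18.6%, 17.4% and 17.5%. The Usp22-KOA samples lay under all other samples, and the Usp22-KOB samples overlapped WT. Means of WT, Usp22-KOA and Usp22-KOB were 18.8 ± 0.68%, 16.1 ± 0.24% and 17.8 ± 0.67% (SD, n = 3 each), so Usp22-KOA stood at 85.4% and Usp22-KOB at 94.7% of WT. Small-subunit genes were lower against WT than large-subunit genes: in Usp22-KOA the 33 small-subunit genes were at 79.9% and the 52 large-subunit genes at 89.4% of WT. In Usp22-KOB these values were 93.8% and 95.4%. The 14 members on chromosome 7 were at 64.3% of WT in Usp22-KOA and at 84.0% in Usp22-KOB, against 90.3% and 97.2% for the 71 members elsewhere. A larger share of the small-subunit than of the large-subunit genes lies on chromosome 7. The difference between subunits and that between chromosomes were therefore not separated here. No test was made on these sums.

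**Figure D1:**
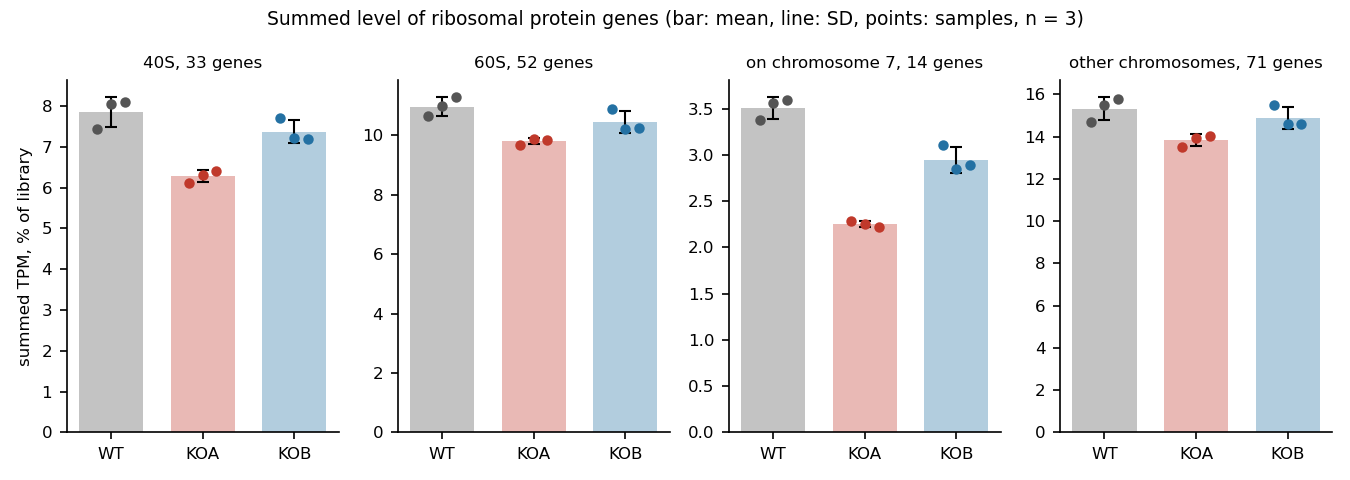
Summed TPM of ribosomal protein genes as a percent of the library in WT, Usp22-KOA (KOA) and Usp22-KOB (KOB), for the 40S genes, the 60S genes, the genes on chromosome 7 and those on other chromosomes. Bars are means, lines SD and points the 3 samples; on chromosome 7 the Usp22-KOA samples lie between 2.22% and 2.29% and the WT samples between 3.37% and 3.59%.

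In Usp22-KOA against WT, 47 of the 82 tested members were lower and 7 higher, where 26.9% of all tested genes were called lower and 29.4% higher. The members' median difference was -0.17, and that of all tested genes 0.02. Of the 33 tested 40S genes 22 were lower and 1 higher, with a median of -0.41. Of the 49 tested 60S genes 25 were lower and 6 higher, with a median of -0.14. Both medians include the members on chromosome 7, which make up a larger share of the 40S genes. The decrease was uneven: the middle 50% of members ran from -0.51 to -0.04, and the extremes were -1.45 and 0.88. In 52 members all Usp22-KOA samples were under all WT samples and in 10 they were above, where 31.1% and 34.2% of all tested genes had groups apart in those directions. Without WT replicate 1, or without Usp22-KOA replicate 2, 4 members were higher.

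Among the abundant members the lowest in Usp22-KOA was Rpl27a, a 60S protein (chr7:109519147-109522367, GRCm38). It was at 1199, 1266 and 1221 TPM in WT, 723, 699 and 689 TPM in the Usp22-KOA and 893, 873 and 852 TPM in the Usp22-KOB samples. The 3 groups did not overlap, with the order WT, Usp22-KOB, Usp22-KOA. It changed by -0.80 ± 0.041 in Usp22-KOA (limma adjusted p = 6.5e-07) and by -0.49 ± 0.041 in Usp22-KOB (limma adjusted p = 4.2e-05). Rpl13a (chr7:45125558-45128761), a 60S protein known also for a separate role in interferon-gamma response, went from 2712, 3062 and 2732 TPM to 1749.5, 1684 and 1645 TPM in the Usp22-KOA and 2165, 2009 and 2105 TPM in the Usp22-KOB samples. Its differences were -0.74 ± 0.057 and -0.44 ± 0.057, with the same order and again without overlap of the 3 groups.

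A second pattern was seen in Rplp2 and Rps3, which fell in Usp22-KOA and overlapped WT in Usp22-KOB. Rplp2, the partner of Rplp1 in the stalk (chr7:141447370-141451585), was at 5259, 5293 and 6012 TPM in WT, 3103, 3272 and 3294 TPM in the Usp22-KOA and 5971, 5408 and 5431 TPM in the Usp22-KOB samples. Against WT its differences were -0.77 ± 0.065 and, for Usp22-KOB, 0.02 ± 0.065. Rps3, a 40S protein at the mRNA entry site that also takes part in DNA repair (chr7:99477896-99483738), was at 779.9, 859 and 821 TPM in WT and 497, 493 and 478 TPM in Usp22-KOA. Its Usp22-KOB samples, at 827, 778 and 832 TPM, overlapped WT, and the differences were -0.74 ± 0.048 and -0.01 ± 0.048.

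The members that rose in Usp22-KOA were Rps4x, Rpl36a, Rpl24, Rpl7a, Rpl7l1, Rpl35 and Rplp0. Rps4x, the X-linked 40S protein S4 (chrX:102184941-102189394), was at 1032, 1073 and 1083 TPM in WT and 1926, 2013 and 1913 TPM in Usp22-KOA. Its difference was 0.88 ± 0.043 (limma adjusted p = 5.6e-07), and the 3 groups did not overlap, since Usp22-KOB lay between them at 1249, 1209 and 1167 TPM. Rpl36a (chrX:134585654-134588062) was at 1462, 1453 and 1515 TPM in WT, 2051, 2279.5 and 2460.5 TPM in the Usp22-KOA and 1612, 1456 and 1449 TPM in the Usp22-KOB samples. Its differences were 0.61 ± 0.070, which was called, and 0.03 ± 0.070, with Usp22-KOB samples that overlapped WT.

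Rpl24, a 60S protein at the subunit interface (chr16:55966275-55971435), was at 1813, 1838 and 1906 TPM in WT, 2429, 2391 and 2468 TPM in the Usp22-KOA and 2047, 1944 and 2079.9 TPM in the Usp22-KOB samples. All groups were apart, with differences of 0.39 ± 0.042 and 0.13 ± 0.042. Rpl7a (chr2:26910764-26913318) rose by 0.29 ± 0.036 in Usp22-KOA, from between 1649 and 1696 TPM to between 1998 and 2068 TPM. Rpl7l1, a paralog of Rpl7 that takes part in ribosome assembly, and Rpl35 rose by 0.20 ± 0.061 and 0.14 ± 0.053. These calls were weak: the limma adjusted p was 0.019 and 0.047, and leaving out WT replicate 1, Usp22-KOA replicate 1 or Usp22-KOA replicate 2 ended either call, as did leaving out WT replicate 3 for Rpl7l1 and WT replicate 2 or Usp22-KOB replicate 2 for Rpl35.

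**Figure D2:**
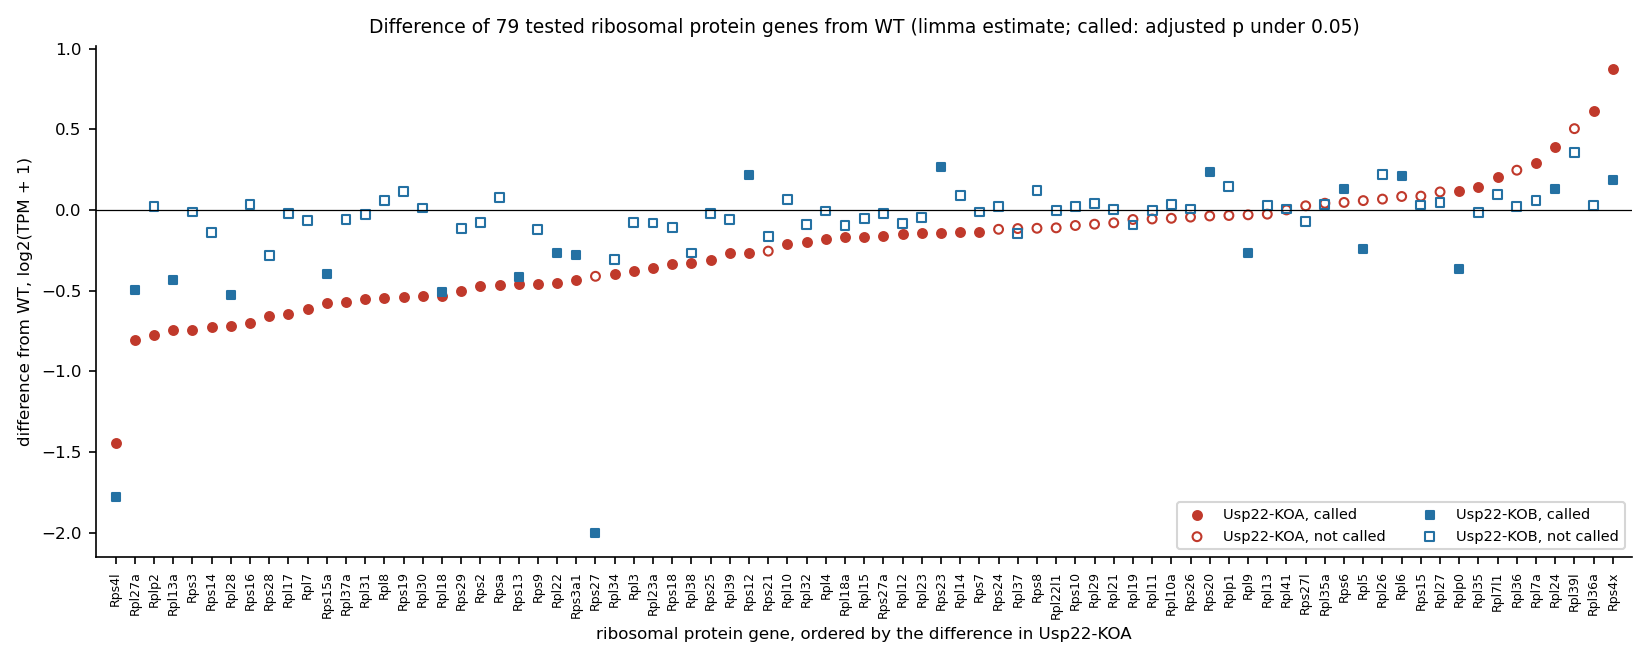
Difference from WT on the log2(TPM + 1) scale for 79 of the 82 tested ribosomal protein genes, ordered by the value in Usp22-KOA (circles) with Usp22-KOB (squares) at the same place. Filled symbols passed the limma test at adjusted p under 0.05; Usp22-KOA runs from -1.45 (Rps4l) to 0.88 (Rps4x), and 13 filled squares lie under 0 and 7 above it.

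In Usp22-KOB against WT, 16 members were lower and 7 higher, with 18.4% of all tested genes called lower and 18.7% higher. The members' median was -0.02 and that of all tested genes -0.01. The share lower, 19.5%, was near the background with this scaling, but with quantile normalization 28 members, or 34.1%, were lower against 21.5% of all tested genes, with a median of -0.09 against -0.01. With array weights 31 members were lower, or 37.8%, against 29.4%. Of the 23 calls 69.6% were decreases, and this share rose to 84.8% with quantile normalization and 84.2% with median-of-ratios scaling. With quantile normalization 28 members were lower and 5 higher, against 2982 and 2892 of all 13843 tested genes. With median-of-ratios scaling 16 members were still lower and 3 were higher, against 2774 and 2942 of all tested genes. There the members' median was -0.007 and that of all tested genes 0.005. Of the 40S genes 8 were lower and 5 higher, and of the 60S genes 8 were lower and 2 higher. Usp22-KOA and Usp22-KOB were compared with the same WT samples, so their values are given side by side and no overlap of the calls is reported.

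The lowest abundant members in Usp22-KOB were Rpl28 and Rpl18. Rpl28 (chr7:4792874-4795066) was at 4483, 4629 and 4898 TPM in WT, 3530.0, 3075 and 3110.4 TPM in Usp22-KOB and 2923, 2778 and 2809 TPM in Usp22-KOA. Its differences were -0.53 ± 0.062 (limma adjusted p = 2.9e-04) in Usp22-KOB and -0.72 ± 0.062 in Usp22-KOA, and no groups overlapped. Rpl18 (chr7:45715457-45720836) was at 2455, 2763 and 2474 TPM in WT, 1835, 1734 and 1837 TPM in Usp22-KOB and 1913, 1707 and 1697 TPM in Usp22-KOA, where the knockouts overlapped each other and lay under WT. Its differences were -0.51 ± 0.065 and -0.53 ± 0.065. Rps27, at 581, 1683 and 598 TPM in WT and 422, 274 and 76.9 TPM in Usp22-KOB, had the lowest value, -2.01 ± 0.620. Its coding sequence is identical to that of Rps27rt, a row outside the members treated with the other copies, so the value of the single row is uncertain.

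The increases in Usp22-KOB were small. Rps23, a 40S protein of the decoding center, was at 2081, 2274 and 2206 TPM in WT and 2736, 2588 and 2554 TPM in Usp22-KOB, a difference of 0.26 ± 0.050 without overlap. Rps20, Rps12, Rpl6, Rps4x and Rps6 rose by 0.24 ± 0.052, 0.22 ± 0.055, 0.21 ± 0.045, 0.18 ± 0.043 and 0.13 ± 0.039. Rps6 is the substrate of the S6 kinases. Rpl24 rose by 0.13 ± 0.042. Without Usp22-KOB replicate 1, 4 members were higher, and the calls of Rps12, Rps6 and Rpl24 ended. That of Rps6 also ended without WT replicate 1, WT replicate 3 or Usp22-KOB replicate 2, and that of Rpl24 without WT replicate 1, WT replicate 2, Usp22-KOA replicate 1, Usp22-KOA replicate 2 or Usp22-KOB replicate 3. With quantile normalization the Rpl6 call ended at 0.05 and the Rpl24 call at 0.02, and with median-of-ratios scaling the Rps4x call ended at 0.10.

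Usp22-KOA and Usp22-KOB differed from each other in this family by the direct test. In Usp22-KOA against Usp22-KOB, 39 members were lower and 8 higher, with 24.2% and 27.5% of all tested genes called in those directions, and the median was -0.13 against 0.03 for all tested genes. Decreases made up 83.0% of these calls, and 69.4% with quantile normalization. With the latter 34 members were lower and 15 higher, against 3333 and 3990 of all tested genes. The 40S genes had 21 lower and 1 higher, the 60S genes 18 lower and 7 higher, again with the members on chromosome 7 included. The lowest were Rplp2 at -0.80 ± 0.065 (limma adjusted p = 1.7e-05), Rps16 at -0.73 ± 0.048, Rps3 at -0.73 ± 0.048, Rps19 at -0.65 ± 0.050, Rpl17 at -0.63 ± 0.044 and Rpl8 at -0.60 ± 0.052. Rps19, the gene most often mutated in Diamond-Blackfan anemia (chr7:24884371-24889806), was at 1351, 1340.3 and 1375 TPM in the Usp22-KOA, 2249, 2014 and 2132 TPM in the Usp22-KOB and 1885, 1994 and 2024 TPM in the WT samples. Rps16 (chr7:28350652-28353155) was between 1841 and 1893 TPM in Usp22-KOA, between 2976 and 3172 TPM in Usp22-KOB and between 2871 and 3168 TPM in WT. For both genes the Usp22-KOA samples were under all other samples. Rpl17, a protein of the exit tunnel (chromosome 18), had Usp22-KOA samples at 1448, 1456 and 1338 TPM, and those of Usp22-KOB, between 2127 and 2209 TPM, reached into the WT range of 2187 to 2229.6 TPM. Rpl8 (chr15:76904078-76906314) had Usp22-KOA samples at 1565, 1546 and 1387 TPM and all others between 2148 and 2313 TPM.

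The highest in Usp22-KOA against Usp22-KOB were Rps4x at 0.69 ± 0.043, Rpl36a at 0.59 ± 0.070, Rplp0 at 0.48 ± 0.043, Rpl5 at 0.30 ± 0.036, Rpl24 at 0.26 ± 0.042 and Rpl9 at 0.24 ± 0.042. Rplp0, the base of the stalk and often used as a reference gene (chr5:115559467-115563727), was at 2658, 2708 and 2625 TPM in WT, 2998, 2933 and 2738 TPM in the Usp22-KOA and 2085, 2064 and 2055 TPM in the Usp22-KOB samples. Against WT it rose by 0.12 ± 0.043 in Usp22-KOA (limma adjusted p = 0.045) and changed by -0.36 ± 0.043 in Usp22-KOB (limma adjusted p = 3.3e-04), with the 3 groups apart. The rise in Usp22-KOA lost its call when any library except Usp22-KOA replicate 3 was left out, and with median-of-ratios scaling. Rpl5, which with 5S rRNA binds Mdm2 when ribosome assembly is disturbed, was at 777, 776 and 752 TPM in WT, 815, 798 and 786 TPM in the Usp22-KOA and 648, 644 and 655 TPM in the Usp22-KOB samples, a change of -0.24 ± 0.036 in Usp22-KOB. Rpl9 was at 1766, 1711 and 1702 TPM in Usp22-KOB, under all other samples, which lay between 2013 and 2177 TPM.

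3 members were called in opposite directions against WT: Rplp0, Rps12 and Rps23. Rps12 (chr10:23785183-23787275) was at 4671, 4339 and 4968 TPM in WT, 3821, 4019 and 3784 TPM in the Usp22-KOA and 5506, 5401 and 5294 TPM in the Usp22-KOB samples. Its differences were -0.26 ± 0.055 and 0.22 ± 0.055, and the groups were apart, although the call in Usp22-KOB ended with median-of-ratios scaling and without Usp22-KOB replicate 1. Rps23 was at 1979, 2058 and 1912 TPM in Usp22-KOA, all under its WT samples, for a difference of -0.14 ± 0.050. This call ended with quantile normalization, at -0.03, with median-of-ratios scaling, and without WT replicate 2, WT replicate 3, Usp22-KOA replicate 1, Usp22-KOA replicate 3 or Usp22-KOB replicate 2. In each of the 3 members at least 1 of the opposite calls thus ended under some alternatives. For Rplp0 and Rps23 it was the call in Usp22-KOA, and for Rps12 both calls ended without the filter on the mean level.

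For the mean of both knockouts against WT, 40 members were lower and 6 higher, with 24.1% of all tested genes lower and 25.9% higher, and the median was -0.13 against 0.01. When the 6 knockout samples were taken as 1 group, the difference between the knockouts counted as spread. In that fit 12 members were lower and 0 higher by limma, against 1509 and 1437 of all 13843 tested genes. At an unadjusted p under 0.05, 22 members were lower and 3 higher. All tested genes were not counted at that threshold, so these counts have no background beside them. Among the lowest were Rps4l at -1.61 ± 0.177, Rpl27a at -0.65 ± 0.035, Rpl28 at -0.62 ± 0.053, Rpl13a at -0.59 ± 0.049 and Rpl18 at -0.52 ± 0.056. Apart from Rps4l, these lie on chromosome 7. The highest of those with groups apart were Rps4x at 0.53 ± 0.037, Rpl24 at 0.26 ± 0.036, Rpl7a at 0.18 ± 0.031 and Rpl6 at 0.15 ± 0.039, whose calls ended with the knockouts taken as 1 group, and that of Rpl6 also without WT replicate 3.

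**Figure D3:**
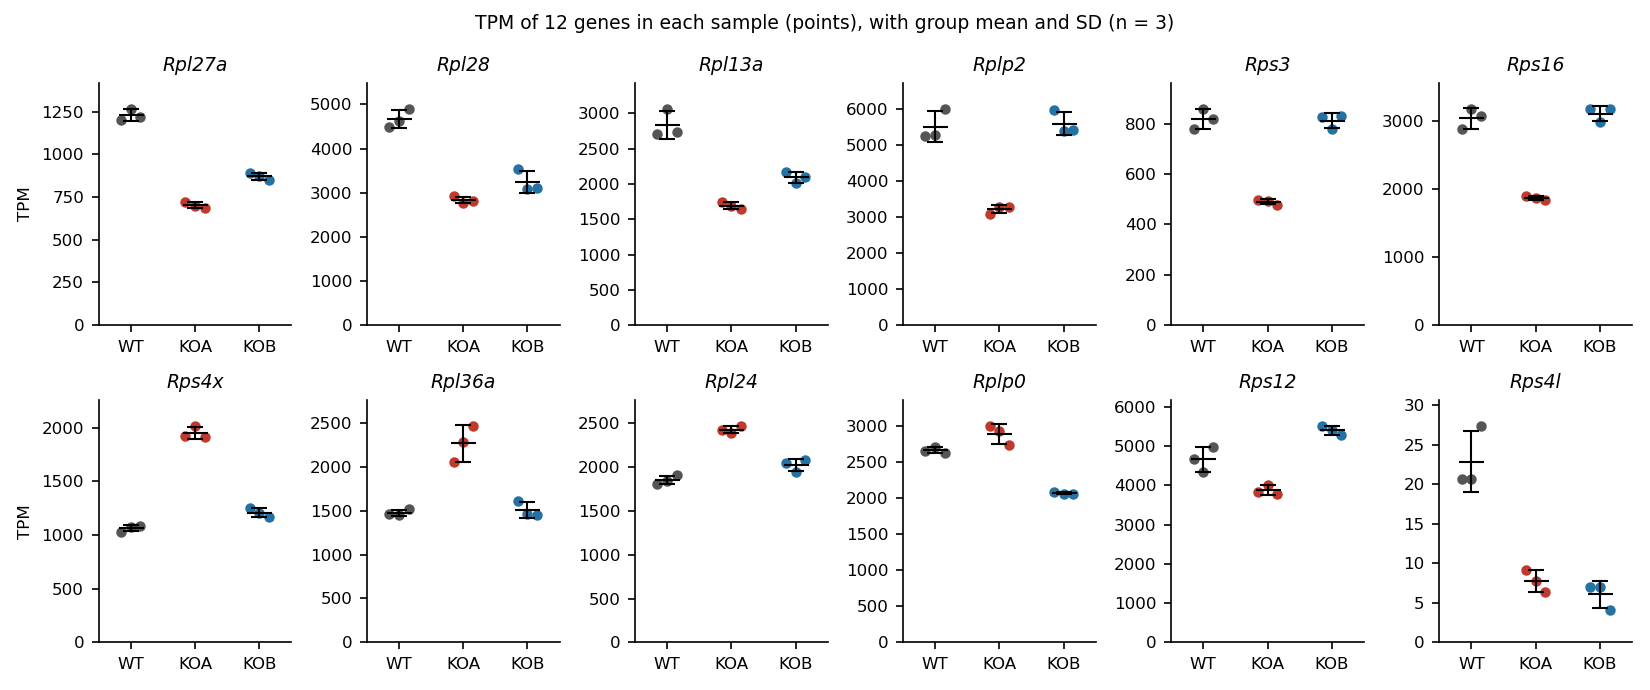
TPM in each of the 9 samples (points) with group mean and SD (n = 3) for 12 ribosomal protein genes, in WT, Usp22-KOA (KOA) and Usp22-KOB (KOB). Rpl27a, Rpl28 and Rpl13a are lower in both knockouts, Rplp2, Rps3 and Rps16 in Usp22-KOA only by the limma test, Rps4x and Rpl24 are called higher in both and Rplp0 and Rps12 in opposite directions, where the Usp22-KOB calls of Rps4x, Rpl24 and Rps12 and the Usp22-KOA call of Rplp0 ended with median-of-ratios scaling.

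The position of the members on the chromosomes was examined after their values had been seen. Ribosomal protein genes are scattered over the genome, and all 85 members were placed on GRCm38 from the GENCODE M21 annotation. Every one of the 14 members on chromosome 7 was called lower in Usp22-KOA, with differences from -0.80 to -0.46 and a median of -0.64. The median over these 14 genes of the deviation from the WT mean was -0.64, -0.64 and -0.66 in the 3 Usp22-KOA samples, and between -0.06 and 0.04 in the WT samples. Other tested genes of chromosome 7, 1036 in number, were low too, with a median of -0.30 and 48.6% called lower. On the other chromosomes 33 of 68 tested members were lower and 7 higher in Usp22-KOA, with a median of -0.14, against a median of 0.05 for the 12489 other genes there.

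For each tested member the median difference of the 50 nearest tested genes on its chromosome was taken, leaving out members and their near-identical copies. In Usp22-KOA against WT, the members' differences went with those of their neighbours, with Pearson's r of 0.72 and Spearman's rho of 0.66 over 82 members. In Usp22-KOB r was 0.56 and rho 0.61, and in Usp22-KOA against Usp22-KOB r was 0.72 and rho 0.73. Without Rps4l and Rps27, which lay far from all others, r was 0.80, 0.77 and 0.86. Without chromosome 7 r was 0.63, 0.48 and 0.67 over 68 members. These are descriptions across genes of the same libraries, and members close together share neighbours. Over the 13534 other tested genes placed in the same way, r was 0.22, 0.17 and 0.25, and over the 198 of these with a mean of at least 500 TPM it was 0.30, 0.21 and 0.38.

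Counted by neighbourhood, 25 members had neighbours with a median below -0.2 in Usp22-KOA, and 23 of these were lower and 0 higher by limma, with 0 higher also at an unadjusted p under 0.05. Among 41 members with neighbours from -0.2 to 0.2, 19 were lower and 1 higher. Of 16 members with neighbours above 0.2, 5 were lower and 6 higher. In Usp22-KOB, 14 of 17 members with neighbours below -0.2 were lower, and 2 of 63 with neighbours from -0.2 to 0.2 were. Of the 7 higher members 6 were among those 63, namely Rpl6, Rps12, Rps20, Rps23, Rps4x and Rps6, and the other was Rpl24. In Usp22-KOA against Usp22-KOB, all 12 members with neighbours below -0.2 were lower, as were 27 of the 59 with neighbours from -0.2 to 0.2. The 8 higher members were all among the 11 with neighbours above 0.2. Many neighbours of the members in the lowest range were called lower themselves. Of the 50 neighbours of each such member, 18 to 35 were lower in Usp22-KOA and 17 to 32 in Usp22-KOB. In Usp22-KOA against Usp22-KOB 19 to 35 were. The share of all other tested genes called within each range was not computed, so these counts do not set members apart from other genes. The bounds of -0.2 and 0.2 were chosen after the values were seen.

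**Figure D4:**
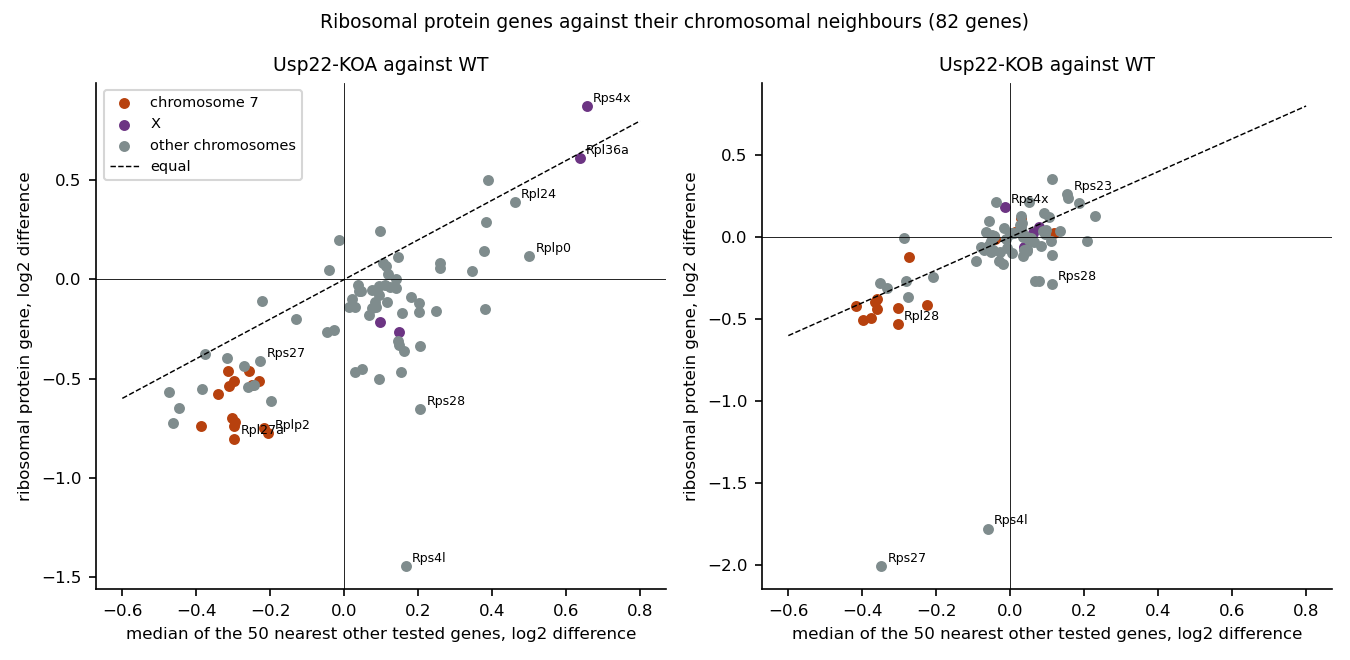
Difference of each of the 82 tested ribosomal protein genes from WT (vertical, log2) against the median difference of its 50 nearest other tested genes (horizontal, log2), in Usp22-KOA (left) and Usp22-KOB (right). The dashed line marks equal values; most points in Usp22-KOA follow the slope but lie under the line, and Rps4x and Rpl36a on chromosome X lie at the upper right.

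Chromosome 7 showed the same relation within its own length in Usp22-KOB. There 10 of its 14 members had neighbours with medians from -0.42 to -0.22, and these members, Rpl28, Rpl13a, Rpl18 and Rpl27a among them, had differences from -0.53 to -0.12, with 9 called lower. The other 4, Rps19, Rps16, Rps3 and Rplp2, had neighbours from -0.04 to 0.12 and differences from -0.01 to 0.11, and limma called none of them, with 1, Rps19, higher at an unadjusted p under 0.05. In Usp22-KOA the neighbours of all 14 had medians from -0.39 to -0.21.

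Elsewhere some members that set Usp22-KOA apart from Usp22-KOB sat among genes that did so, and others did not. In Usp22-KOA against Usp22-KOB, Rpsa was at -0.54 with neighbours at 0.00, Rps12 at -0.48 with 0.01, Rps23 at -0.41 with -0.09 and Rps2 at -0.39 with 0.08. By contrast, Rpl17 was at -0.63 with neighbours at -0.38. Rps4x and Rpl36a had neighbours with medians of 0.66 and 0.64 in Usp22-KOA and of -0.01 and 0.06 in Usp22-KOB. Rpl24 had neighbours at 0.46 and 0.23, and Rpl7a at 0.38 and 0.03. Rpl10 and Rpl39, also on chromosome X, were at -0.21 and -0.26 in Usp22-KOA against WT, with neighbours at 0.10 and 0.15. Rplp0, Rpl5 and Rpl9, which lie apart on chromosome 5 and fell in Usp22-KOB by -0.36, -0.24 and -0.27, had neighbours there at -0.28, -0.21 and -0.28. Of the members on chromosome 1, Rpl7, Rpl31 and Rpl37a, all 3 were lower in Usp22-KOA, where 51.8% of other genes of that chromosome were lower, and limma called none in Usp22-KOB, with 0 also at an unadjusted p under 0.05.

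On top of the neighbourhood, members tended to lie under their neighbours in Usp22-KOA. There 76 of 82 members were below the median of their neighbours, by a median of -0.22, and in Usp22-KOB 48 of 82 were, by -0.03. Among other tested genes 49.7% were below their neighbours in each knockout, and among those with at least 500 TPM 50.5% and 48.0%, in the same order. With quantile normalization 71 members were below in Usp22-KOA, and 63 were below in Usp22-KOB. The members farthest below, apart from Rps4l, were Rps28 on chromosome 17, with -0.66 against 0.21 for its neighbours, and Rps2 on the same chromosome, with -0.47 against 0.15. Rps28 was at 4033, 5818 and 4845 TPM in WT and 3117, 2934 and 3179.8 TPM in Usp22-KOA. Copy number of the DNA was not analysed here, and why members moved with their neighbours was not tested.

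**Figure D5:**
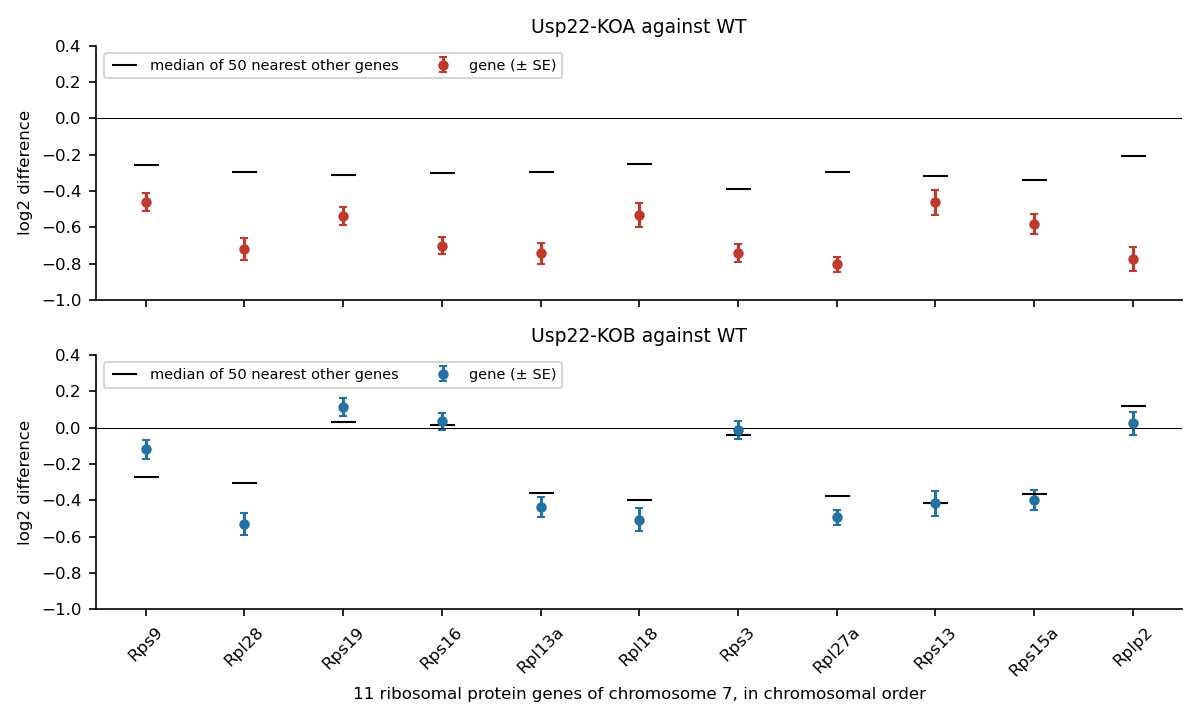
Shown are 11 of the 14 ribosomal protein genes of chromosome 7 in chromosomal order, with their log2 difference from WT (points, ± SE from limma) and the median of their 50 nearest other tested genes (short lines), in Usp22-KOA (top) and Usp22-KOB (bottom). All points lie under 0 in Usp22-KOA, while in Usp22-KOB Rps19, Rps16, Rps3 and Rplp2 and their neighbours lie near 0.

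Several members had near-identical copies in the table, to which their reads could have been assigned. A coding sequence at least 95% identical over at least 80% of its length was found outside the members for 16 members, in 17 rows. For 4 of them the copy carried most of the summed level: Rps27rt held 94.5% of Rps27 with Rps27rt, Gm15772 93.4% of Rpl26 with Gm15772, Gm12191 95.9% of Rpl30 with Gm12191 and Rpl34-ps1 90.7% of Rpl34 with Rpl34-ps1. The coding sequence of Rps27rt was 100% identical to that of Rps27, over 252 bases, so values of the separate rows are uncertain. Summed, Rps27 with Rps27rt was at 13249, 13607 and 14970 TPM in WT, 8840.0, 10142 and 11553 TPM in the Usp22-KOA and 10360.4, 9576 and 9399.8 TPM in the Usp22-KOB samples. Both knockouts lay under WT, at 73.0% and 70.1% of its mean, so the 27.0% given by the Rps27 row alone did not hold for the sum. The call of the Rps27 row in Usp22-KOB also ended without WT replicate 2, at 1683 TPM, without Usp22-KOB replicate 2 or without Usp22-KOB replicate 3, and over all alternatives its difference ran from -2.52 to -0.51.

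Rpl30 with Gm12191 was at 63.6% of its WT mean in Usp22-KOA and reached 95.7% in Usp22-KOB. Rpl34 with Rpl34-ps1 was at 81.8% and 82.6%, and Rpl26 with Gm15772 at 100.7% and 104.7%. On the log2 scale the 4 sums were at -0.45, -0.65, -0.29 and 0.01 in Usp22-KOA for Rps27, Rpl30, Rpl34 and Rpl26. The neighbours of these members had medians of -0.23, -0.24, -0.32 and 0.11, whereas those of the copies, which lie on other chromosomes, had 0.12, 0.24, -0.01 and -0.49. In Usp22-KOB the sums were at -0.51, -0.06, -0.28 and 0.07, the members' neighbours at -0.35, -0.05, -0.33 and 0.05, and the copies' neighbours at 0.03, 0.17, -0.11 and -0.19. For each of the 4 pairs, in both knockouts, the sum was nearer to the neighbours of the member than to those of the copy. The pairs were chosen after the values were seen, and both comparisons share the WT samples. From which of the 2 genes the reads came was not tested.

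Among the paralogs, 5 pairs were above 0 in every sample and their log2 ratios were tested by an exact two-sided permutation test, with Benjamini-Hochberg adjustment over 15 tests. The design with 6 knockout and 3 WT samples cannot give a p under 0.0119, and 3 against 3 cannot give one under 0.1. Rpl22l1, which can replace Rpl22 and is known to be repressed by it, stood at a log2 ratio to Rpl22 of 0.09 ± 0.14 in WT, 0.43 ± 0.096 with Usp22-KOA and 0.35 ± 0.040 with Usp22-KOB (SD, n = 3 each). The ratio was higher in 6 of 6 knockout samples than in any WT sample, by 0.30 (exact p = 0.0119, adjusted 0.0893), which did not pass after adjustment. Rpl22 itself was at 282, 301 and 286 TPM in WT, 214, 211 and 209.9 TPM in the Usp22-KOA and 246, 235 and 241 TPM in the Usp22-KOB samples, without overlap, and was called lower in both, while the values of Rpl22l1 were -0.11 ± 0.063 and 0.00 ± 0.063 and not called.

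Rps4l and Rps4x moved apart. Rps4l, an intronless relative of Rps4x (chr6:148354656-148355598), was at 20.6, 20.7 and 27.4 TPM in WT, 9.14, 7.79 and 6.37 TPM in the Usp22-KOA and 7.08, 7.06 and 4.08 TPM in the Usp22-KOB samples. Both knockouts were under WT, with differences of -1.45 ± 0.205 and -1.78 ± 0.205. Its log2 ratio to Rps4x changed by -2.28 over both knockouts (exact p = 0.0119, adjusted 0.0893). The ratio of Rpl7l1 to Rpl7 was higher by 0.49 (exact p = 0.0238, adjusted 0.119). Rpl7 was at 1766, 1774 and 1780.1 TPM in WT and 1171, 1204 and 1107 TPM in Usp22-KOA. The ratios of Rps27l to Rps27 and of Rpl39l to Rpl39 had exact p of 0.179 and 0.202 with overlapping samples.

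The start sites of members that fell and of members that rose were compared in the RefSeq sequence of GRCm38.p6, from 250 bases before to 50 bases after the start. An entry was found for 64 members. The sequences below run from 40 bases before to 20 bases after the start of 4 members that fell and 4 that rose in Usp22-KOA, with every run of at least 7 C and T bases in capitals. They were chosen after the values were seen.
Rpl27a (fell, chr7:109519155-109519214, + strand): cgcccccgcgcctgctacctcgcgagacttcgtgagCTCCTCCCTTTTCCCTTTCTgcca
Rplp2 (fell, chr7:141447611-141447670, + strand): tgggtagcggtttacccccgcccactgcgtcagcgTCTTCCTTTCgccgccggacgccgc
Rpl28 (fell, chr7:4792925-4792984, + strand): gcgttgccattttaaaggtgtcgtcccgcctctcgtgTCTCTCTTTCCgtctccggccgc
Rps3 (fell, chr7:99483690-99483749, - strand): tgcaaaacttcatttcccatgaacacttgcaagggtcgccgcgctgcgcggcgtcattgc
Rpl7a (rose, chr2:26910767-26910826, + strand): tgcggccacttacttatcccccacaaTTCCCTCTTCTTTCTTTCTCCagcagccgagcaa
Rps4x (rose, chrX:102189372-102189431, - strand): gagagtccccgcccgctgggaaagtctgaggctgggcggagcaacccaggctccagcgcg
Rpl36a (rose, chrX:134585614-134585673, + strand): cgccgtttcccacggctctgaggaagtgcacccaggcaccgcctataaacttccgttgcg
Rpl24 (rose, chr16:55966235-55966294, + strand): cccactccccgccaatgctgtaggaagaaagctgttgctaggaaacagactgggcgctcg
A tract of this kind at the start stands in Rpl27a, Rplp2 and Rpl28, which fell, and in Rpl7a, which rose, and is absent from these windows of Rps3, which fell, and of Rps4x, Rpl36a and Rpl24, which rose.

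Over all 64 members with an entry, a run of at least 7 C and T bases that begins with C, on the gene's strand and reaching within 20 bases of the start, was found in 57.8%, against 26.7% of all 27025 genes with an entry. The core of the ETS factor motif, CCGGAA on either strand, was in 54.7% of the members and 16.7% of all genes, and the GC box GGGCGG in 60.9% and 38.2%. Of the 32 such members lower in Usp22-KOA, 18 had the tract and 18 had CCGGAA, and of the 32 not lower, 19 and 17. GGGCGG, on either strand, was in 21 and 18. A match is a description of the letters, and RefSeq starts can lie some bases from the start used in these cells.

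The start of Rps27 is shown with that of Rps27rt because the pair shares a coding sequence and most signal was assigned to the latter.
Rps27 (chr3:90213629-90213688, - strand): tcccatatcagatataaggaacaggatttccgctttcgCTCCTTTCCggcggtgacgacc
Rps27rt (chr9:114982720-114982779, - strand): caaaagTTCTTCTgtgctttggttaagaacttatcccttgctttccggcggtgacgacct

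Genes that act with the ribosomal proteins were followed in lists. The share of all tested genes called in each direction, given above, is the measure for these counts. The list genes are not set beside their chromosomal neighbours here, and the part of position in their differences was not tested. Of 4 further ribosome proteins outside the symbol rule, 3 were lower in Usp22-KOA, and 1 was lower in Usp22-KOB. Fau, whose fusion protein yields the 40S protein S30, went from 2802 ± 101 TPM in WT to 1845 ± 65.7 TPM in the Usp22-KOA and 2651 ± 124 TPM in the Usp22-KOB samples. Of 18 other genes whose mRNAs begin with the oligopyrimidine tract, 13 were lower and 3 higher in Usp22-KOA, with a median of -0.43, and 5 lower and 3 higher in Usp22-KOB, with a median of -0.02. Pabpc1, the poly(A)-binding protein, went from 624 ± 11.9 to 334 ± 13.7 and 566 ± 22.9 TPM, and Eef1b2, an elongation factor subunit, from 371 ± 1.30 to 217 ± 5.77 and 368 ± 8.66 TPM. Eif4b, a cofactor of the cap-binding helicase, went from 264 ± 1.93 to 135 ± 0.80 and 215 ± 13.2 TPM. Of 37 translation factors, which include some of these, 16 were lower and 12 higher in Usp22-KOA and 6 lower and 3 higher in Usp22-KOB.

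Of 14 host genes of small nucleolar RNAs, which guide modification of ribosomal RNA, 9 were lower and 0 higher in Usp22-KOA by limma, 0 also at an unadjusted p under 0.05, with a median of -0.44, and 3 lower and 1 higher in Usp22-KOB, with -0.14. Snhg1 went from 291 ± 23.7 TPM in WT to 122 ± 8.27 TPM in the Usp22-KOA and 269 ± 31.2 TPM in the Usp22-KOB samples, and Gas5 from 91.5 ± 7.02 to 46.7 ± 3.01 and 92.2 ± 6.20 TPM. Of 42 ribosome biogenesis genes, 17 were lower and 5 higher in Usp22-KOA and 9 lower and 4 higher in Usp22-KOB. Ncl, the nucleolar protein nucleolin, went from 109.7 ± 4.32 to 55.7 ± 2.62 and 99.2 ± 6.70 TPM and was called in Usp22-KOA alone, whereas Sbds, which frees new 60S subunits of Eif6, rose from 91.3 ± 3.16 to 195 ± 10.6 and 124 ± 3.17 TPM. The 15 tested genes of RNA polymerase I, which makes ribosomal RNA, had 4 lower and 4 higher in Usp22-KOA and 3 lower and 1 higher in Usp22-KOB.

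Of 20 tested regulators in the MYC and mTORC1 pathways, 6 were lower and 7 higher in Usp22-KOA and 4 lower and 4 higher in Usp22-KOB. Mycn, a MYC family factor, fell from 25.1 ± 3.44 TPM in WT to 0.96 ± 0.12 TPM in the Usp22-KOA and 2.23 ± 0.43 TPM in the Usp22-KOB samples. Larp1, which holds back translation of oligopyrimidine mRNAs, rose from 49.4 ± 1.74 to 74.1 ± 3.69 TPM in Usp22-KOA and was at 50.5 ± 2.77 TPM in Usp22-KOB. Mitochondrial ribosomal proteins, made from nuclear genes for a separate ribosome, had 28 lower and 23 higher of 78 in Usp22-KOA, with a median of 0.02, and 21 lower and 6 higher in Usp22-KOB, with a median of -0.09. The p53 and ribosome stress list had 7 lower and 6 higher of 16 in Usp22-KOA and 1 lower and 2 higher in Usp22-KOB, and the replication and mitosis list 9 lower and 6 higher of 21, and 2 lower and 6 higher.

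Markers of other cell types moved with the groups. Summed TPM of 10 epithelial markers ranged from 7951 to 8458 in WT, from 6280.5 to 7061 in Usp22-KOA and from 6859 to 8386 in Usp22-KOB. The 7 mast cell markers summed to between 149 and 182 TPM in WT, 1190.1 and 2467 TPM for Usp22-KOA and 93.5 and 123 TPM for Usp22-KOB. The 10 macrophage and monocyte markers summed to between 1948 and 3036, 1279 and 3142, and 5439 and 9686 TPM in the same order, and the 10 pan-leukocyte markers to between 523 and 892, 672 and 1469, and 1165 and 2407 TPM. The 9 fibroblast markers summed to between 513 and 934, 192 and 235, and 819 and 1255 TPM, the 8 endothelial markers to between 32.7 and 45.7, 4.71 and 10.8, and 25.3 and 37.9 TPM, and the 11 T and NK cell markers to between 10.8 and 19.2, 46.0 and 106, and 26.3 and 67.6 TPM. The 7 neutrophil markers summed to between 646 and 696, 578 and 1514, and 152 and 511 TPM, and the 7 B and plasma cell markers to between 4.32 and 15.7, 11.4 and 18.8, and 4.23 and 11.9 TPM. Of the 7 red blood cell markers Hbb-bs was listed at 0 in all samples, and the 7 summed to between 269 and 323, 80.4 and 100.2, and 229 and 530.4 TPM. The part of these cell types in the ribosomal protein values was not tested. WT replicate 2 stood above the other WT samples for some members, at 7102 TPM against 5103 and 5357 for Rpl38 and at 5119 TPM against 3239 and 3452 for Rps29. It stood under them for others, at 7364 TPM against 7621 and 8513 for Rpl41 and at 4542 TPM against 5271 and 5963 for Rps26. Without WT replicate 2, 41 members were lower and 5 higher in Usp22-KOA.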

How the data were processed

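Polyadenylated RNA of 9 samples in 3 groups of 3 was deposited by the authors as 1 table of TPM values for 24493 genes. Salmon, DESeq2 and build mm10 are named in the submitters' processing notes, without roles or versions, and the annotation used is not stated. Each column matched 1 sample by its label, and 0 columns were left over. All libraries sum to 1000000 TPM, with 6520 to 7234 genes at 0. TPM keeps no depth, so no counting interval is given, and a 0 sets no upper limit.

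From these values log2(TPM + 1) was computed and the 13843 genes whose mean reached 1 TPM were tested with limma 3.58.1 in R 4.3.3 (group means over 9 samples, intensity trend, Benjamini-Hochberg adjustment over all tested genes). Tools were tested on simulated data. Python 3.11.15, pandas 2.3.3, numpy 2.4.6, scipy 1.17.1, matplotlib 3.10.9 and BLAST 2.17.0 were used. Copies were found by aligning GENCODE M21 coding sequences. Named members were, in each comparison, the 6 highest and 6 lowest called with groups apart, the 5 highest and 5 lowest by level, the paralog pairs, those called in opposite directions, and up to 3 genes of each list. Others, and the analyses of position, copies and promoters, were chosen after their values were seen. Members and lists were chosen with earlier results of these data known. Of the members, 21 had no promoter entry. Alternatives changed the pseudocount (0.1, 5), filter, scaling, variance model, samples and replicate block. Count models were not used, since the values are not counts. A few single genes are not reported here and were left out of the plots that name genes. Counts, sums and medians include them.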

Additional observations from a re-analysis of the deposited data

Results flagged for a closer look

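Of the 47 members called in Usp22-KOA against Usp22-KOB, the 14 named by rule (the 6 highest, the 6 lowest and those of opposite calls) are given here, where the effect against WT differed between the knockouts by the direct limma test with Benjamini-Hochberg adjustment over all tested genes. The effect in Usp22-KOA minus that in Usp22-KOB was -0.80 for Rplp2, -0.73 for Rps16, -0.73 for Rps3, -0.65 for Rps19, -0.63 for Rpl17, -0.60 for Rpl8, -0.48 for Rps12 and -0.41 for Rps23. It was 0.69 for Rps4x, 0.59 for Rpl36a, 0.48 for Rplp0, 0.30 for Rpl5, 0.26 for Rpl24 and 0.24 for Rpl9. Rplp2, Rps16, Rps3 and Rps19 lie on chromosome 7, Rps4x and Rpl36a on chromosome X, and Rplp0, Rpl5 and Rpl9 on chromosome 5. Other members there went the other way: Rpl10 on chromosome X was called lower, at -0.28, and Rpl6 on chromosome 5, at -0.13. In each of the 14 genes named by rule all 3 Usp22-KOA samples were on 1 side of all 3 Usp22-KOB samples.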

How the results depend on the processing

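Counts and sums of members and the highest and lowest differences named in each comparison were recomputed under 21 alternatives. The lists, markers, paralog ratios and promoter shares were not. None of these highest and lowest differences reversed direction. Of their values 926 kept the call and 40 lost it, for Rpl35, Rps6, Rps27, Rpl7l1, Rpl6, Rps12, Rps4x, Rpl24 and Rpl7a. Outside this tally, the Usp22-KOA calls of Rplp0, Rps23 and Rps12 ended under 14, 12 and 1 alternatives. The Usp22-KOB call of Rpl24, also outside it, ended under 13. Members lower in Usp22-KOB numbered 28 with quantile normalization and 31 with array weights, against 16. Members higher in Usp22-KOA against Usp22-KOB numbered 15 with quantile normalization, against 8, and members higher in Usp22-KOB 3 with median-of-ratios scaling, against 7. With the 6 knockout samples as 1 group, 12 members were lower and 0 higher in both knockouts, with 3 higher at an unadjusted p under 0.05. Of all 13843 tested genes, 1509 were lower and 1437 higher by limma in that fit, and they were not counted at the unadjusted threshold. The summed level was 200898, 169018 and 188867 TPM in WT, Usp22-KOA and Usp22-KOB rescaled without the microRNA gene Mir6236, and 212144, 179202 and 197772 TPM with near-identical copies added, an alternative chosen after seeing the data. The median of all tested genes in Usp22-KOA, 0.02, was -0.01 without WT replicate 3. The cause of these shifts was not tested.

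Leaving out each sample in turn gave 33 to 39 lower and 4 to 7 higher for both knockouts, 40 to 48 and 4 to 7 for Usp22-KOA, 15 to 17 and 4 to 8 for Usp22-KOB, and 30 to 40 and 7 to 10 for Usp22-KOA against Usp22-KOB. The summed level then ran from 185546 to 192101 TPM in WT, 160024 to 162270.0 in Usp22-KOA and 174530.0 to 180358 in Usp22-KOB. Members higher in Usp22-KOA numbered 4 without WT replicate 1 and 4 without Usp22-KOA replicate 2, and members higher in Usp22-KOB 4 without Usp22-KOB replicate 1. With 25 or 100 neighbours, chosen after seeing the data, r in Usp22-KOA was 0.72 and 0.73. With a replicate block 33 were lower and 5 higher for both knockouts, 43 and 5 for Usp22-KOA, 16 and 5 for Usp22-KOB, and 34 and 8 for the knockouts against each other. Samples with the same number deviated together with correlations from -0.125 to 0.276, and not every sample correlated best with its own number. WT replicate 1 was at -0.0863 and -0.125 with the knockout samples of its number. Each Usp22-KOA sample correlated better with the Usp22-KOB sample of its number, at 0.187, 0.0765 and 0.276, than with the other Usp22-KOB samples. Whether the numbers pair the samples cannot be told from these values.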
